A study of Rattus norvegicus with 10 samples.

Results

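The genes described are 7 acetylcholine receptors and acetylcholinesterase, the enzyme that breaks acetylcholine down. They were 8 genes given by symbol, Chrm1, Chrm2, Chrm3, Chrm4, Chrna4, Chrna7, Chrnb2 and Ache, out of 32041 RNA records in a table of messenger RNA counts, of which 22431 were tested. All 8 had 1 RNA record each, and all 8 passed the filter on low counts. The counts came from 10 adult male Sprague-Dawley rats, 5 sham operated and 5 with traumatic brain injury (TBI) by lateral fluid percussion, in which a pressure pulse of fluid strikes the exposed dura (mean 3.32 atm). Sham rats had the same anaesthesia, craniectomy and other surgery without the pulse, so both groups carry the craniectomy. Tissue containing CA3 and dentate gyrus was taken from the left hippocampus 3 months after surgery, and 1 library was made per rat. The injured rats had no EEG monitoring, so epilepsy was not assessed in them. Each library is 1 rat, and the numbers given to rats below only name them.

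Acetylcholine reaches the hippocampus mainly through axons of neurons in the medial septum and diagonal band, whose cell bodies lie outside the dissected tissue. The metabotropic muscarinic receptors are encoded by the Chrm genes. The products of Chrm1 and Chrm3 act through Gq proteins and phospholipase C, and can close M-type potassium channels, while those of Chrm2 and Chrm4 act through Gi and Go proteins and often sit on axon terminals. The nicotinic receptors are ion channels of several subunits, of which the products of Chrna4 and Chrnb2 assemble with each other and that of Chrna7 can form a channel alone. Acetylcholinesterase is used as a marker of cholinergic innervation in stains of the hippocampus, although neurons that receive the axons also transcribe Ache. Because whole tissue was measured, fewer cells of a type and less RNA per cell cannot be told apart in any value below.

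Libraries held 23425817 to 31671838 counts on RNA records, with no difference between groups that exceeded the spread (two-sided exact permutation p = 0.960). Ribosomal RNA took 58.5% and 59.0% of the counts in sham replicates 5 and 4 and 12.5% to 26.2% in the other 8 rats, and this share was higher in sham rats (two-sided exact permutation p = 0.0238, and from 0.0635 to 0.127 with 1 TBI rat left out). Counts outside ribosomal RNA were 12686398 and 12987310 in sham replicates 5 and 4, and were lower in sham than in TBI rats. Their means were 17169533 and 22866915 (n = 5 each, two-sided exact permutation p = 0.0238). Fits without sham replicates 4 and 5, and with the ribosomal RNA share as a covariate, were also made. They are given below for the genes described one by one whose unadjusted p they moved across 0.05. Gnai1 also crossed 0.05 with the covariate, and its value in that fit is not given. Markers of both labelled regions were present: 5 of 7 dentate granule cell markers and 4 of 6 CA3 markers passed the filter on low counts, with summed levels of 83.5 to 281 CPM and 398 to 568 CPM per rat. Markers of CA1 pyramidal cells, a region that is not labelled, also passed the filter in 5 of 5. Their sums were 67.9 to 146 CPM in sham and 48.0 to 501 CPM in TBI rats. All 5 had log2 changes above zero with TMM scaling, 2 of them with an unadjusted p under 0.05. The part of CA1 tissue in the levels of the 8 genes was not tested. Of the 7 markers of cholinergic cell bodies, the transcription factors Lhx8, Isl1 and Gbx1 were below the filter on low counts. CPM are a gene's counts relative to the library size of the rat, after adjustment by the trimmed mean of M values (TMM). They are not scaled by transcript length, so levels are compared between rats and not between genes.

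To show the members as DNA, the 250 bases before the RefSeq gene start were taken from the GRCr8 assembly for all 8 genes. GC content was 58.8% to 75.6%, above the median of 51.2% over 33469 promoters of the same length, in 8 of 8. A GC box, GGGCGG on either strand, was present in 7 of 8 members and in 30.5% of all these promoters, and Chrm1 was the member without it. A CCAAT box, CCAAT on either strand, occurred in Chrm4 alone among the members and in 34.0% of all promoters, and an E box, CACGTG, in Chrna7 and Ache and in 5.59% of all promoters. TATAAA and TGACGTCA were in 0 of 8 members, and in 12.9% and 1.59% of all promoters. The following 3 sequences are shown because Chrm4 and Ache varied together most closely among the members (below) and Chrm1 differed from them in its promoter. Capitals mark GC boxes, which overlap or adjoin where a run of capitals is longer than a single box, and the sequences read 5′ to 3′ on the strand of the gene. They lie at chr3:98348830-98349079 (plus strand) for Chrm4, chr12:25050411-25050660 (minus strand) for Ache and chr1:214996109-214996358 (plus strand) for Chrm1. A match of letters is not a measured binding site.
Chrm4: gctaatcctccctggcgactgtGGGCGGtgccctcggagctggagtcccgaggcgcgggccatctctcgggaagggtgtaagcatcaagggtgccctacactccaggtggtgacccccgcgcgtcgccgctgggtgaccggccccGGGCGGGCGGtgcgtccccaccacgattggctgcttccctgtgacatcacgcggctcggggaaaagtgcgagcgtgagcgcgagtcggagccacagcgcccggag
Ache: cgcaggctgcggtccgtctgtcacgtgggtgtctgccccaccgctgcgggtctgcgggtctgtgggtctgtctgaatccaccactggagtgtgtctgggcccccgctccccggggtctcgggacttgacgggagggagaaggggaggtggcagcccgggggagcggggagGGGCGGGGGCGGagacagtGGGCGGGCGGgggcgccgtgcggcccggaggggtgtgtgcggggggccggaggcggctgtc
Chrm1: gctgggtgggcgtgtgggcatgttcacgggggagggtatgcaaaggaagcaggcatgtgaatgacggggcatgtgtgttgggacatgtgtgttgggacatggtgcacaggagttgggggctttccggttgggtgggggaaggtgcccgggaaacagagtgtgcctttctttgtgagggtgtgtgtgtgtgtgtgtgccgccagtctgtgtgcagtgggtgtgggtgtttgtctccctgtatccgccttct

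The main comparison asked whether any of these genes differed between TBI and sham rats 3 months after injury. Neither a receptor nor Ache passed the test. With Benjamini-Hochberg adjustment over all rows, edgeR's quasi-likelihood test called 0 of the 8 at 0.05, beside 0% of the 22431 rows tested. DESeq2 and limma voom also called 0 of the 8, beside 3 and 0 of all rows. At an unadjusted p under 0.05 there were 0 of the 8 by each of these tools, while 7.89% of all rows had such a p in edgeR. The groups overlapped in 8 of 8, and they did not overlap in 0.923% of all rows. The log2 changes of TBI over sham ran from -0.26 (Chrna4) to 0.11 (Ache), with 4 above and 4 below zero and a median of -0.02, beside -0.01 for all rows. The 95% interval of the change was narrowest for Chrm1 and widest for Chrm2. Scaling by total counts over all rows, which puts the median log2 change of all rows at 0.50, gave all 8 a log2 change above zero, from 0.22 to 0.62, so each direction below is relative to the other genes.

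**Figure D1:**
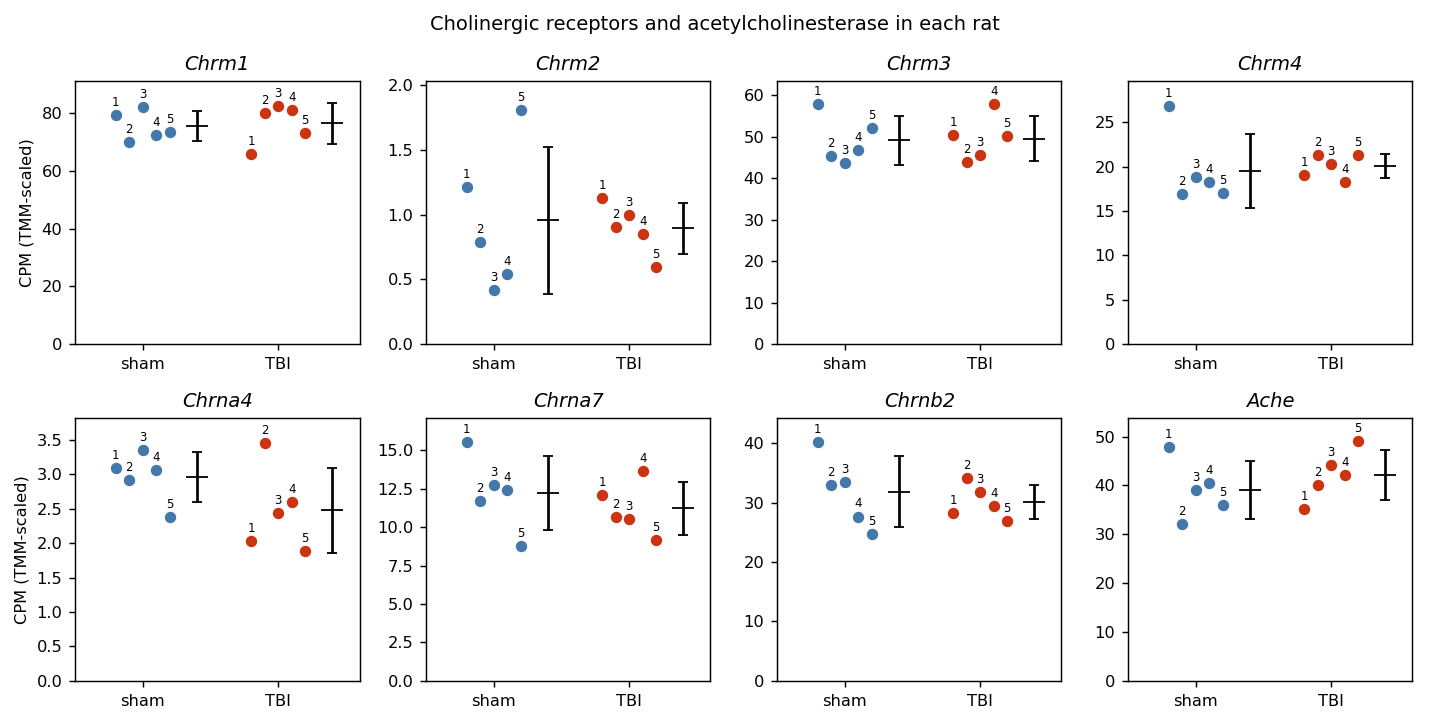
Level of each of the 8 genes (CPM, y axis from 0, a separate scale per panel) in the 5 sham and 5 TBI rats, numbered by replicate, with the mean and SD as a bar. The 2 groups overlap in each panel, and sham replicate 1 is the highest sham rat in 5 of the 8 panels.

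Chrm1 encodes the M1 receptor, which is abundant on hippocampal principal cells. Its level was 79.2, 70.1, 82.2, 72.4 and 73.6 CPM in sham replicates 1 to 5 and 65.7, 80.0, 82.4, 81.1 and 72.9 CPM in TBI replicates 1 to 5. The groups overlapped over most of their range, with TBI replicate 1 the lowest of the 10 rats and TBI replicate 3 the highest. The mean was 75.5 CPM ± 5.05 (SD, n = 5) in sham and 76.4 CPM ± 7.02 (SD, n = 5) in TBI rats. This is a change of 1.17% with a 95% interval from -9.96% to 13.7% (edgeR's quasi-likelihood test, adjusted p = 0.980). Chrm1 had the narrowest interval of the members, on 1065 to 3008 counts per rat.

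Chrm3 encodes the M3 receptor, which shares the Gq pathway with M1. Sham rats had 58.0, 45.3, 43.6, 46.9 and 52.0 CPM, and TBI rats 50.3, 43.9, 45.7, 57.9 and 50.1 CPM, in order of replicate. All 5 TBI rats lay within the sham range. The change was 0.790% with a 95% interval from -12.0% to 15.4% (edgeR's quasi-likelihood test, adjusted p = 0.991).

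Chrm4 encodes the M4 receptor, coupled to Gi. It was 26.9 CPM in sham replicate 1 and 16.9, 18.8, 18.3 and 17.0 CPM in sham replicates 2 to 5. In TBI replicates 1 to 5 it was 19.1, 21.3, 20.3, 18.3 and 21.3 CPM. Sham replicate 1 stood above the other 9 rats, and 4 of the 5 TBI rats were above the sham median. The change was 2.06% with a 95% interval from -13.5% to 20.5% (edgeR's quasi-likelihood test, adjusted p = 0.972). Without sham replicate 1 the log2 change was 0.17, with an unadjusted p still above 0.05 (adjusted p = 0.614 in the same test).

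Chrm2 encodes the M2 receptor, which in the hippocampus is known from interneurons and from cholinergic terminals. Its row held few reads, with 39, 22, 13, 8 and 29 counts in sham replicates 1 to 5 and 39, 34, 34, 27 and 23 counts in TBI replicates 1 to 5. These counts gave 0.957 CPM ± 0.566 (SD, n = 5) in sham and 0.896 CPM ± 0.198 (SD, n = 5) in TBI rats. Sham rats spread over both ends of the range, from 0.422 CPM in replicate 3 to 1.81 CPM in replicate 5, and all 5 TBI rats lay between them. The 95% interval of the change ran from -39.4% to 51.6% (edgeR's quasi-likelihood test, adjusted p = 0.982), so these rats leave both a fall and a rise possible. The parts of low counts and of the spread between rats in this width were not tested.

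**Figure D2:**
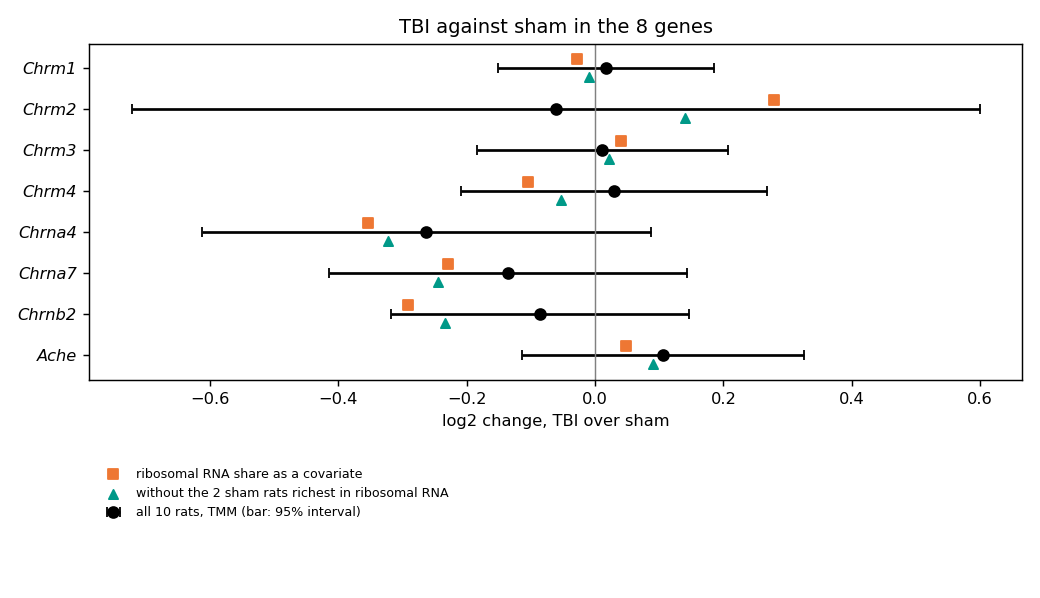
Log2 change of TBI over sham for each gene, with its 95% interval (black), and the same change with the ribosomal RNA share as a covariate (squares) or without sham replicates 4 and 5, which had the most of it (triangles). The black intervals cover 0 for each of the 8 genes, and Chrm2 has the widest.

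Among nicotinic subunits, Chrna4 had the change farthest from zero of the 8 genes. It encodes the α4 subunit of the receptor that binds nicotine with high affinity. Sham rats had 3.09, 2.91, 3.35, 3.06 and 2.37 CPM, and TBI rats 2.03, 3.46, 2.43, 2.59 and 1.89 CPM. In 4 of 5 TBI rats the level was below the sham median, while TBI replicate 2 had the highest level of all 10. The change was -16.7% with a 95% interval from -34.6% to 6.21% (edgeR's quasi-likelihood test, adjusted p = 0.742), on 38 to 130 counts per rat. Without TBI replicate 2 the log2 change was -0.42, with an unadjusted p under 0.05 (adjusted p = 0.820). It was -0.20 without TBI replicate 1 and -0.18 without TBI replicate 5, both with an unadjusted p above 0.05.

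Chrnb2 encodes the β2 subunit that assembles with α4. It was 40.2, 33.0, 33.4, 27.7 and 24.7 CPM in sham rats and 28.3, 34.1, 31.8, 29.5 and 27.0 CPM in TBI rats. All 5 TBI rats lay inside the sham range, and sham replicates 4 and 5, the libraries richest in ribosomal RNA, were 2 of the 3 lowest of the 10. The change was -5.79% with a 95% interval from -19.8% to 10.6% (edgeR's quasi-likelihood test, adjusted p = 0.892). With the ribosomal RNA share as a covariate the log2 change was -0.29 (adjusted p = 0.974), and without those 2 rats it was -0.23 (adjusted p = 0.876), both with an unadjusted p under 0.05. Without sham replicate 1 it was 0.01, and under total count scaling outside ribosomal RNA, where the median over all rows was a log2 change of 0.14, it was 0.05.

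Chrna7 encodes the α7 subunit, the calcium-permeable nicotinic receptor of interneurons and presynaptic terminals. Levels were 15.5, 11.7, 12.8, 12.4 and 8.75 CPM in sham rats and 12.1, 10.6, 10.5, 13.7 and 9.17 CPM in TBI rats. Sham replicates 1 and 5 held the highest and the lowest level of the 10, so all 5 TBI rats fell between them. The change was -9.02% with a 95% interval from -25.0% to 10.4% (edgeR's quasi-likelihood test, adjusted p = 0.849). The log2 change of -0.14 became -0.036 without sham replicate 1 and -0.23 without sham replicate 5. All 3 nicotinic members thus had log2 changes below zero with TMM scaling, from -0.26 to -0.09, and above zero with total count scaling over all rows, from 0.22 to 0.36 against the median of 0.50. None of the 3 passed the test.

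Ache was 47.9, 32.0, 39.0, 40.6 and 36.0 CPM in sham rats and 35.2, 40.1, 44.2, 42.1 and 49.0 CPM in TBI rats. TBI replicate 5 and sham replicate 1 had the highest levels, and 4 of 5 TBI rats were above the sham median. The mean was 39.1 CPM ± 5.90 (SD, n = 5) in sham and 42.1 CPM ± 5.11 (SD, n = 5) in TBI rats. The change was 7.59% with a 95% interval from -7.59% to 25.3% (edgeR's quasi-likelihood test, adjusted p = 0.853). Leaving out sham replicate 1 moved the log2 change from 0.11 to 0.19, leaving out sham replicate 2 to 0.040 and leaving out TBI replicate 5 to 0.045. Under total count scaling outside ribosomal RNA the log2 change was 0.26, with an unadjusted p under 0.05 (adjusted p = 0.377). In that fit the median over all rows was 0.14, and 12.9% of all rows had such a p.

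The spread between rats differed among the genes. The coefficient of variation (SD over mean) among sham rats was 6.69% for Chrm1, 11.9% for Chrm3 and 12.2% for Chrna4, and 59.2% for the sparse Chrm2. Chrm4 varied by 21.3% among sham rats and by 6.69% among TBI rats, and Chrna4 by 12.2% and 24.9%. These spreads were not tested against each other. Sham replicate 1 was the highest sham rat for Chrm3, Chrm4, Chrna7, Chrnb2 and Ache. It also had the lowest summed level of dentate granule cell markers, 83.5 CPM beside 134 to 281 CPM in the other 9 rats, and 568 CPM of CA3 markers beside 398 to 567 CPM. It was also the highest of the 10 in general neuron markers (2425 CPM beside 1817 to 2293 CPM) and GABAergic interneuron markers (272 CPM beside 143 to 242 CPM). In oligodendrocyte markers (2378 CPM beside 2399 to 3424 CPM) and blood cell markers (183 CPM beside 264 to 416 CPM) it was the lowest. The part of these differences in the receptor levels was not tested.

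**Figure D3:**
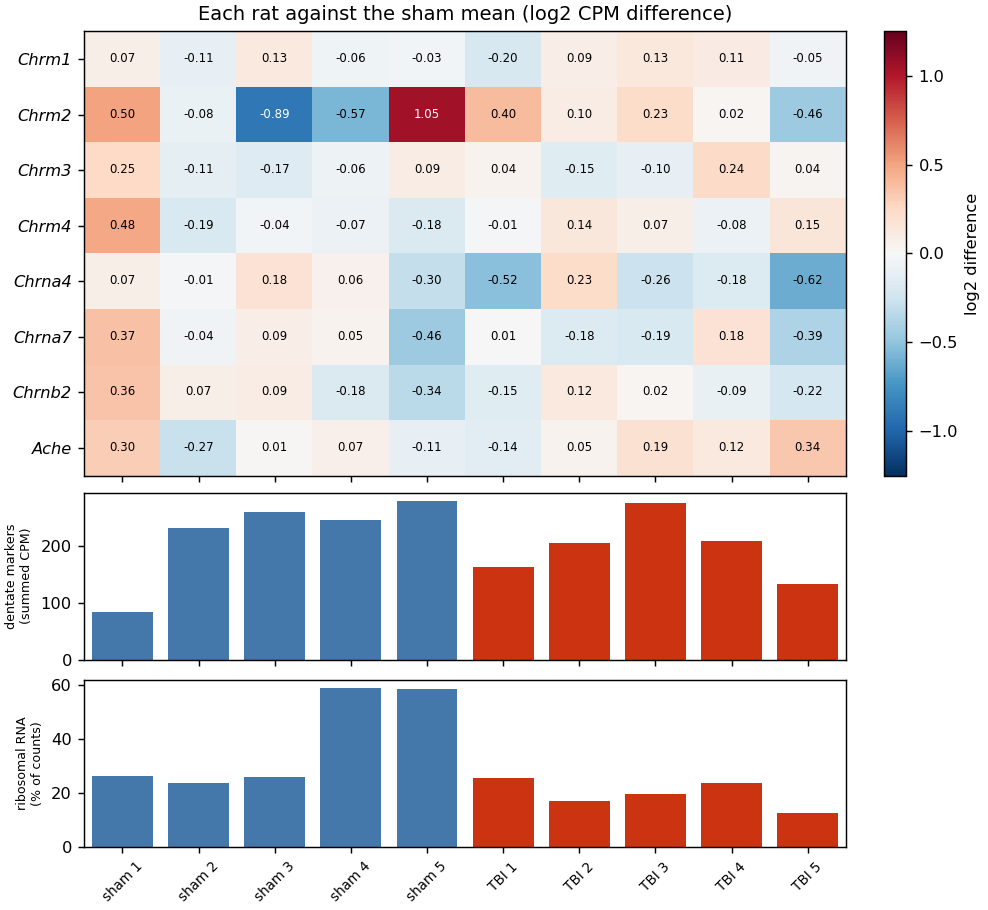
Log2 CPM of each gene in each rat minus the mean of the sham rats (heat map, prior count of 2), above the summed CPM of 5 dentate granule cell markers and the ribosomal RNA share of each library (bars from 0). Sham replicate 1 is the highest sham rat in 5 of the 8 genes and the lowest of the 10 in dentate markers, and sham replicates 4 and 5 have the highest ribosomal RNA shares.

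As a description over the 10 rats, which share library and tissue piece for all genes, Pearson's r of log2 CPM between pairs of members ranged widely. It was highest for Chrm4 with Ache (0.75), followed by Chrna7 with Chrnb2 (0.66), Chrm4 with Chrnb2 (0.64) and Chrna4 with Chrnb2 (0.64). It was lowest for Chrm3 with Chrna4 (-0.32). Sham replicate 1 was the highest sham rat for Chrm4, Chrna7, Chrnb2 and Ache, and its part in these values was not tested. Pearson's r was also used to find, among 8278 symbols with a mean of at least 5 CPM, those whose pattern over the rats was most like each member. For the receptors of the Gq pathway these were Plppr2 (0.97) and Sez6l2 (0.93) for Chrm1, and Kcnn2 (0.89) and Habp4 (0.86) for Chrm3. For Chrm4 they were Pnkd (0.96) and Agpat3 (0.95), and for Chrm2, among 8279 symbols, Ctr9 (0.89) and Noc3l (0.86). Chrna4, likewise among 8279, was most like Zmym3 (0.92) and Copg1 (0.90), Chrna7 like Asb1 (0.93) and Gfm2 (0.89), and Chrnb2 like Mcf2l (0.95) and Ulk1 (0.92). Ache was most like Fdx2 (0.98) and Elob (0.95). Each value is the highest or second highest of all the symbols searched and is given as a description only.

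The rest of the cholinergic system was read from a list of 46 other genes. Of these, 37 were tested, 7 were below the filter on low counts and 2, Lypd6 and Lypd6b, had no row matched. None of the 37 was called after adjustment by edgeR (0 genes), by DESeq2 (0) or by limma voom (0). An unadjusted p under 0.05 was found for 3 of the 37 (8.11%, beside 7.89% of all rows), 1 higher and 2 lower in TBI, a share near that of all rows. The median log2 change of the 37 was -0.03, beside -0.01 for all rows.

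Of the 14 other receptor genes, 8 were tested, and their log2 changes ran from -0.65 (Chrna3) to 0.65 (Chrm5). Chrna5, which encodes an accessory subunit that joins α4β2 receptors, was the 1 gene of the 37 whose groups did not overlap, beside 0.923% of all rows. Sham rats had 2.03, 3.02, 1.88, 2.11 and 3.12 CPM, and TBI rats 1.80, 1.62, 1.73, 1.49 and 1.45 CPM. Each TBI rat was below the lowest sham rat, though narrowly in TBI replicate 1. The mean was 2.43 CPM ± 0.590 (SD, n = 5) in sham and 1.62 CPM ± 0.150 (SD, n = 5) in TBI rats, on 31 to 84 counts per rat. The change was -32.9% with a 95% interval from -47.8% to -13.7% (edgeR's quasi-likelihood test, adjusted p = 0.483), which did not pass the adjusted threshold. With each of the 10 rats left out in turn the log2 change was from -0.66 to -0.47, and with total count scaling over all rows it was -0.06. Of the GABAergic interneuron markers, 9 of 9 had log2 changes below zero with TMM scaling, 3 of them (Gad1, Gad2 and Lhx6) with an unadjusted p under 0.05, and their summed level was 196 to 272 CPM in sham and 143 to 231 CPM in TBI rats. Their part in the Chrna5 values was not tested.

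Chrm5, which encodes the M5 receptor, was 1.03, 0.647, 0.682, 0.748 and 0.687 CPM in sham and 1.74, 2.10, 1.20, 0.443 and 0.544 CPM in TBI rats. The TBI rats lay on both sides of the sham range, with 3 above and 2 below it, and the gene did not pass (log2 change 0.65, adjusted p = 0.726 in edgeR's quasi-likelihood test). Its unadjusted p was under 0.05 without TBI replicate 4 (log2 change 0.86) and without TBI replicate 5 (0.85). It was above 0.05 without TBI replicate 1 (0.49), without TBI replicate 2 (0.35) and in limma voom (0.32). The 2 TBI rats with the most Chrm5, replicates 1 and 2, also had the highest summed levels of CA1 pyramidal cell markers, 295 and 501 CPM, beside 48.0 to 192 CPM in the other 8 rats. TBI replicate 5 had the next highest sum of these markers, 192 CPM, and its Chrm5 level of 0.544 CPM was below the sham range. The part of CA1 tissue in the Chrm5 values was not tested. Chrna3 held 1 to 13 counts per rat, and its log2 change of -0.65 did not pass (adjusted p = 0.753). With the ribosomal RNA share as a covariate it was -1.12, with an unadjusted p under 0.05. Chrna6, Chrna9, Chrna10, Chrnb3, Chrnd and Chrng had at most 5 counts in any library.

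None of the 6 genes of acetylcholine synthesis and transport passed, and the 3 that mark cholinergic neurons, whose cell bodies lie outside this tissue, had few reads. Chat, choline acetyltransferase, was 1.30 CPM ± 0.328 (SD, n = 5) in sham and 1.00 CPM ± 0.261 (SD, n = 5) in TBI rats, on 18 to 47 counts per rat. Its log2 change was -0.34 with a standard error of 0.220 (edgeR's quasi-likelihood test, adjusted p = 0.746), and without TBI replicate 3 it was -0.48, with an unadjusted p under 0.05. Without sham replicate 5, which had the most Chat, it was -0.21. With the ribosomal RNA share as a covariate it was -0.17, and without sham replicates 4 and 5 it was -0.18. In these last fits the unadjusted p was above 0.05. Slc18a3, the vesicular acetylcholine transporter, had 2 to 10 counts per rat, and Slc5a7, the high-affinity choline transporter, had 2 to 13. Their log2 changes were 0.34 and 0.17 with standard errors of 0.430 and 0.512, so each change was smaller than its standard error.

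**Figure D4:**
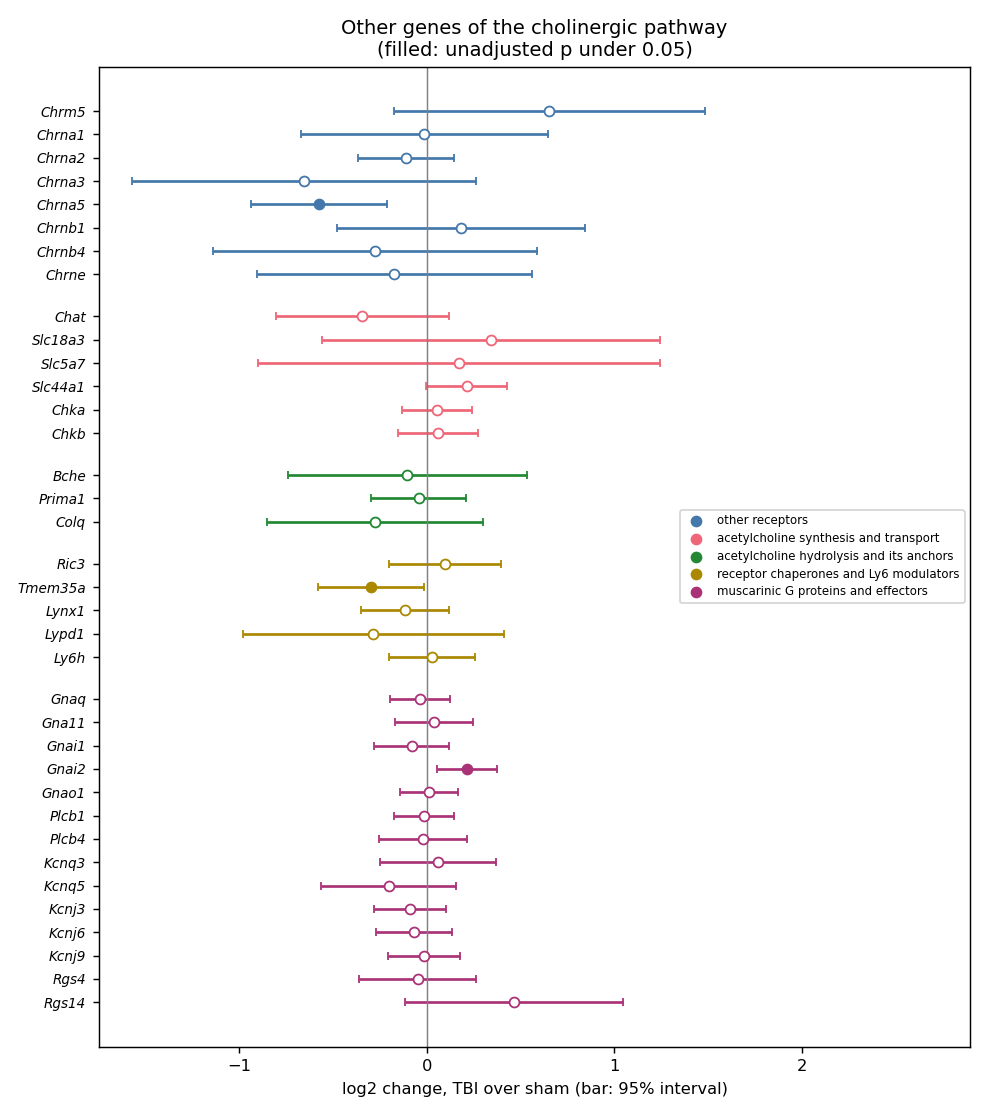
Log2 change of TBI over sham with its 95% interval for 36 of the 37 tested genes of the wider cholinergic list, coloured by role, with filled points for an unadjusted p under 0.05. The filled points are Chrna5, Tmem35a and Gnai2, and 0 of the 37 passed an adjusted p of 0.05.

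The 3 genes of hydrolysis and its anchors, Bche, Prima1 and Colq, had log2 changes from -0.28 (Colq) to -0.04 (Prima1), above zero for both with total count scaling over all rows, and none passed. Prima1 encodes the protein that anchors acetylcholinesterase to membranes of the brain, and it was 8.75 CPM ± 1.56 (SD, n = 5) in sham and 8.49 CPM ± 0.763 (SD, n = 5) in TBI rats. Colq, the collagen tail of the enzyme at muscle synapses, was 1.26 CPM ± 0.204 (SD, n = 5) in sham and 1.02 CPM ± 0.512 (SD, n = 5) in TBI rats. Its log2 change was -0.62 without TBI replicate 2, with an unadjusted p under 0.05, and -0.11 without TBI replicate 1.

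Of 8 chaperones and Ly6 modulators of nicotinic receptors, 5 were tested. Tmem35a, a chaperone needed for the assembly of α7 receptors, was 79.5, 64.2, 50.2, 65.4 and 44.7 CPM in sham and 41.5, 46.5, 50.5, 53.0 and 56.2 CPM in TBI rats. The groups overlapped, and 5 of 5 TBI rats were below the sham median. The change was -18.6% with a 95% interval from -33.2% to -0.88% (edgeR's quasi-likelihood test, adjusted p = 0.620). Its unadjusted p, under 0.05 with all rats, was above 0.05 in 6 of the 10 fits with a rat left out (sham replicates 1, 2 and 4 and TBI replicates 1, 2 and 3). It was also above 0.05 in limma voom, with no filter on low counts, and with total count scaling over all rows or outside ribosomal RNA. The log2 change was -0.18 without sham replicate 1, and 0.18 with total count scaling over all rows. Its client Chrna7 had a log2 change of -0.14 (adjusted p = 0.849) in the same fit. Ric3, another chaperone of nicotinic receptors, had a log2 change of 0.10 (adjusted p = 0.903).

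Among the 15 G proteins and effectors of muscarinic receptors, log2 changes ran from -0.20 (Kcnq5) to 0.46 (Rgs14), with a median of -0.02. Gnai2, a Gi alpha subunit that is also abundant in microglia, was 239, 238, 274, 245 and 236 CPM in sham and 285, 315, 259, 290 and 281 CPM in TBI rats. The groups overlapped only through sham replicate 3 and TBI replicate 3, and the change was 16.0% with a 95% interval from 3.74% to 29.7% (edgeR's quasi-likelihood test, adjusted p = 0.511). With the ribosomal RNA share as a covariate, and without the 2 sham rats that had the most of it, its unadjusted p was above 0.05. Microglia markers had log2 changes above zero with TMM scaling in 6 of 6, 2 with an unadjusted p under 0.05, and summed levels of 135 to 220 CPM in sham and 164 to 234 CPM in TBI rats, and their part in the Gnai2 values was not tested. Rgs14, a regulator of G protein signalling that marks CA2 pyramidal cells, and Kcnq5, a subunit of the M-type channel, had adjusted p values of 0.718 and 0.814. The log2 change of Kcnq5 was -0.42 with the ribosomal RNA share as a covariate and -0.36 without those 2 sham rats, both with an unadjusted p under 0.05, and -0.0062 without sham replicate 1. That of Rgs14 was 0.64 without TBI replicate 4, with an unadjusted p under 0.05, and from 0.35 to 0.64 with each of the 10 rats left out in turn. Rgs14 was 71.2, 49.8, 79.1, 76.5 and 80.8 CPM in sham and 116, 116, 83.8, 48.2 and 127 CPM in TBI rats. TBI replicates 1, 2 and 5, which had the most Rgs14, also had the highest summed levels of CA1 markers. TBI replicate 4 was the lowest of the 10 in both. The part of CA1 tissue in the Rgs14 values was not tested. The remaining 12 genes, among them Gnaq, Gnao1 and Plcb1, had log2 changes from -0.09 to 0.06 in the main fit. Of these, Gnai1 had an unadjusted p under 0.05 with the ribosomal RNA share as a covariate, lower in TBI.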

How the data were processed

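Messenger RNA was measured in 10 rats (5 sham, 5 TBI). Per the study's methods, poly-A RNA was sequenced as 36-base single reads and aligned with BWA to rn4. The deposited values are raw read counts per RefSeq RNA record, while the methods name Ensembl transcripts, and whether strand was used is not given in the sources used here. The methods give fewer controls for messenger RNA than the 5 sham rats that the labels and the table hold. Symbols came from RefSeq's GRCr8 gene table and matched 54.2% of 32041 records. No row coordinates were used.

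Rows were tested where their counts summed to 44 or more (the 30th percentile), in edgeR 4.0.16 (R 4.3.3) with TMM scaling, the quasi-likelihood test and Benjamini-Hochberg adjustment over 22431 rows. Where a symbol had several rows, that with the highest mean count was used. Library measures were compared by a two-sided exact permutation test. DESeq2 1.42.0 and limma 3.58.1 served as alternatives, beside other scalings, filters, the ribosomal RNA share as a covariate and left-out rats. The scripts were tested on simulated data. Log2 CPM for correlations used a prior count of 2. Library depth was 23425817 to 31671838 counts, and 2 rows naming no RNA, among them unmapped reads (median 22.2% of all reads in the table), were left out of it.

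The members and gene lists were chosen with earlier results of these data known. Named from the wider list were genes with an unadjusted p under 0.05, the highest and lowest log2 change of each role, and Chat, Slc18a3 and Slc5a7. Of the wider list, 1 gene entered the counts and medians but is not reported here by name. Likeness took the 2 symbols with the highest Pearson's r per member. No 2 libraries agreed within sampling noise. The rats were handled one by one, so p-values measure the spread between rats.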

Additional observations from a re-analysis of the deposited data

Results flagged for a closer look

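In 5 of 46 groups of 5 rats, taken over the 8 members and the named genes of the wider list and both library measures, 1 rat stood apart from the other 4 by Dixon's criterion, where chance gives 2.30 (about 1 in 20 groups). Chrm4 was 26.9 CPM in sham replicate 1 and 16.9 to 18.8 CPM in the other sham rats. In the same rat Chrm5 was 1.03 CPM, beside 0.647 to 0.748 CPM, and Kcnq5 was 35.3 CPM, beside 17.5 to 22.4 CPM. Chat was 1.87 CPM in sham replicate 5 and 1.03 to 1.22 CPM in the other sham rats. Gnai2 was 274 CPM in sham replicate 3 and 236 to 245 CPM in the others. Without sham replicate 1 the log2 change of Chrm4 was 0.17, and that of Kcnq5 was -0.0062.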

How the results depend on the processing

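Over 23 alternatives 0 members and 0 genes of the wider list passed an adjusted p of 0.05, and the lowest adjusted p was 0.274 for a member and 0.130 for a named gene of the wider list. Of all rows, 92 passed with total count scaling over all rows, 12 without TBI replicate 3, 5 without sham replicate 3 and 3 in DESeq2. In each other alternative 0 of all rows passed. The number of members with an unadjusted p under 0.05, 0 as reported, was 1 in each of 3 alternatives. It was Ache under total count scaling outside ribosomal RNA, where 12.9% of all rows had such a p. It was Chrnb2 with the ribosomal RNA share as a covariate (4.42% of all rows) or without the 2 sham rats richest in it (5.6%). Leaving out each rat gave 0 to 1 (Chrna4 without TBI replicate 2, beside 6.04% of all rows). For the wider list, 3 became 5 with the covariate (Chrna3, Chrna5, Tmem35a, Gnai1 and Kcnq5), where 4.42% of all rows had such a p. Leaving out each rat gave 2 to 5 genes of that list, beside 5.17% to 11.4% of all rows. The 5 were found without TBI replicate 4 (Chrm5, Chrna5, Tmem35a, Gnai2 and Rgs14), where the share of all rows was 7.43%.

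Of 184 member values 29 changed sign and 155 did not, and of 295 values for named genes of the wider list 10 did and 285 did not. With the covariate log2 changes were -0.028 (Chrm1), 0.28 (Chrm2), -0.10 (Chrm4) and -0.10 (Ric3). Without the 2 rats richest in ribosomal RNA they were -0.0090, 0.14, -0.052 and -0.051 for the same genes. Total count scaling over all rows, which moved the median of all rows to 0.50 by its construction, gave 0.49 (Chrm2), 0.22 (Chrna4), 0.32 (Chrna7), 0.36 (Chrnb2), 0.21 (Chat), 0.45 (Prima1), 0.26 (Colq), 0.18 (Tmem35a) and 0.24 (Kcnq5). Outside ribosomal RNA it gave 0.087 (Chrm2), 0.0078 (Chrna7), 0.052 (Chrnb2) and 0.10 (Prima1). Limma voom gave 0.18 (Chrm2) and -0.29 (Slc5a7). Leaving out each rat gave -0.012 to 0.066 (Chrm1), -0.28 to 0.22 (Chrm2), -0.050 to 0.076 (Chrm3), -0.022 to 0.17 (Chrm4), -0.17 to 0.0096 (Chrnb2) and -0.15 to 0.045 (Prima1). The causes of the other changes were not tested. The difference in total counts (TBI minus sham) ran from -1405650 to 655852 and that in ribosomal RNA share from -22.7 to -13.9 percentage points when each rat was left out, and the latter had an exact permutation p up to 0.127 with a TBI rat left out. Slc5a7 was below the filter without 1 rat and has 9 such fits. Low counts limit Chrm2, Chrna3, Slc18a3 and Slc5a7.

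No paired analysis was possible because the labels number the rats in no shared way between groups.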
